A study of Mus musculus with 96 samples.

Results

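Rbm3 and Cirbp encode the 2 cold-inducible RNA-binding proteins of the glycine-rich family, RNA-binding motif protein 3 and cold-inducible RNA-binding protein. They were taken by their symbols from the 4 deposited expression tables, where they are 2 of 22384 genes. Both were among the 12144 genes tested. The study sequenced messenger RNA from the epidermis of male C57BL/6 mice in which the clock gene Arntl (encoding BMAL1) was active everywhere or only in chosen tissues. Epidermis was collected at 6 times of a day of 12 h light and 12 h dark, every 4 h from lights on (zeitgeber time 0, ZT0), from 4 mice per time in each of 4 genotypes, 96 libraries in all. The mice were 8 weeks old and were housed at 22 °C.

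WT mice had the intact alleles (Arntl wt/wt) and carried both Cre transgenes, K14Cre wt/tg together with Syt10-Cre tg/wt. The other 3 genotypes were homozygous for a silenced allele (Arntl stopFL/stopFL), which is expressed once Cre has removed its stop cassette. RERE mice carried K14Cre tg/wt and also Syt10-Cre tg/wt, so that Arntl was restored in epidermis and brain. EpiRE mice carried K14Cre tg/wt but were Syt10-Cre wt/wt, so that Arntl was restored in epidermis. BRE mice were K14Cre wt/wt but carried Syt10-Cre tg/wt, so that Arntl was restored in brain. K14-Cre acts in keratinocytes, and Syt10-Cre acts in the suprachiasmatic nucleus and in other neurons. A group with Arntl restored nowhere was not analysed here, so the rhythms below are not set against mice lacking a clock. All skin was kept in ice-cold PBS and then in dispase for 45 min at 37 °C before the epidermis was lifted off, in every genotype alike.

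Rbm3 and Cirbp transcripts rise when cells are cooled by a few degrees and fall when they are warmed. Body temperature therefore can drive daily cycles of both transcripts, in the opposite phase to heat shock genes, which respond to warming through the transcription factor HSF1. In cultured cells CIRBP protein binds clock transcripts such as that of Clock and supports the size of their rhythms, and RBM3 protein promotes translation and acts on the choice of polyadenylation sites. Body or skin temperature was not among the measurements analysed here.

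In mm10, Rbm3 (ENSMUSG00000031167) is a protein-coding gene at chrX:8138975-8145880 on the minus strand. Cirbp (ENSMUSG00000045193) is a protein-coding gene at chr10:80165985-80172786 on the plus strand. The antisense gene Rbm3os, at chrX:8145429-8147964 on the plus strand, shares 452 bases with Rbm3, and whether reads were counted by strand is not given in the sources used here. A processed pseudogene, Rbm3-ps, lies at chr1:150265535-150265999, and reads that fit both copies could be split between them. The stretch upstream of Cirbp is shown because it holds the 8 letters of the mild-cold response element, TCCCCGCC, a sequence described in the Cirbp promoter and bound by the transcription factor SP1. It covers chr10:80167589-80167777 on the plus strand, 189 bases of RefSeq (GRCm38.p6) that end where the first annotated exon in this window begins, and 1 longer Cirbp transcript spans it as an intron. Capitals mark the element.
Cirbp: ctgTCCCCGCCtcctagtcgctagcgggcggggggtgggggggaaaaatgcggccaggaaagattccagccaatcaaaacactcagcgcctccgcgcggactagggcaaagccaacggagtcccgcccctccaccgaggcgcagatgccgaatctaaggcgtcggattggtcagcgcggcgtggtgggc
The element starts 247 bases before the RefSeq transcript start, on the same strand as the gene. Searched on both strands, it occurs in 2.86% of 32851 RefSeq promoter windows of this length. The E-box CACGTG, the D-box TTATGTAA and the heat shock element, searched as GAA, TTC and GAA with 2 bases between neighbours, letters bound by BMAL1, by PAR bZIP factors such as DBP and by HSF1, have 0 matches in the stretch and occur in 3.99%, 0.581% and 0.329% of the windows.

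Levels are given as RPKM (reads per kilobase of transcript and scaled to library depth), which is how the deposited log2 values behave. Estimated depth was about 11246000 to 32358000 reads per library, with a median of 16487000. Rbm3 rested on an estimated 2222 to 9272 reads per library and Cirbp on 958 to 5005, so the counting error was at most 2.12% and 3.23% and was below the spread between mice given further on. Keratinocyte transcripts dominated every library: the 6 basal markers summed to 7735 to 13487 RPKM. Markers of other cells were far lower but not absent. Langerhans cell markers summed to at most 150.77 RPKM and T cell markers to at most 90.79. Skeletal muscle markers summed to 29.48 to 49.96 RPKM. Blood markers varied widely between libraries, from 0.5 to 51.51 RPKM in WT. Melanocyte and fibroblast markers reached 25.39 and 20.7 RPKM. The lowest lists were adipocytes, at most 1.52 RPKM, and the 3 endothelial markers, at most 0.31. Of 18 tested core clock genes, 16 were called rhythmic in WT and in RERE, against 7 in EpiRE and 2 in BRE (1 after median rescaling of the libraries). Of all tested genes, 34.4% (WT), 16.4% (RERE), 2.87% (EpiRE) and 17.1% (BRE) were called. Nr1d1, encoding the repressor REV-ERBα, changed by 4.03 ± 0.14 log2 (SE) from trough to peak in WT and by 0.15 ± 0.11 in BRE.

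Both genes were abundant in epidermis in all 4 genotypes. Rbm3 averaged 63.5 ± 15.9 RPKM (WT), 60.5 ± 14.4 (RERE), 61.6 ± 8.2 (EpiRE) and 59.2 ± 13.7 (BRE), with the SD over 24 libraries each. Cirbp averaged 56.0 ± 16.5, 54.8 ± 14.6, 52.8 ± 8.7 and 50.9 ± 15.6 RPKM in the same order (SD, n = 24). Each level was above that of 91.6% to 93.8% of the tested genes of its table. These means differ by less than the SD over the day, and since each genotype's table was normalized apart they were not tested. In bulk epidermis, fewer cells with a transcript and less transcript per cell cannot be told apart.

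In WT epidermis, Rbm3 rose through the light phase, was highest at ZT8 and ZT12 and had fallen by ZT16. The 4 WT mice had 54.2, 52.0, 48.9 and 48.4 RPKM at ZT0, 81.0, 60.0, 60.6 and 67.2 at ZT4, and 91.5, 78.5, 80.0 and 74.0 at ZT8. They had 80.0, 75.3, 87.6 and 75.3 RPKM at ZT12, 55.1, 54.5, 42.1 and 41.0 at ZT16, and 72.7, 34.9, 46.0 and 64.3 at ZT20. Every mouse at ZT8 and ZT12 was above every mouse at ZT0 and ZT16, and the mice at ZT20 spread from the lowest value of the genotype to the level of ZT4 and overlapped all other times except ZT8 and ZT12. In a limma fit of a 24 h cosine over the 24 libraries, Rbm3 changed 1.74-fold from trough to peak (0.80 ± 0.15 log2, SE) and peaked at ZT8.44 ± 0.70 h (SE), with an adjusted p of 0.00106. In WT 34.4% of all tested genes were called at an adjusted p below 0.05, so a call was common there. The Rbm3 rhythm was larger than that of 94.5% of the tested genes, whose median was 0.23 log2.

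Cirbp had its highest means at ZT4 and ZT8 in the same WT mice. Its values were 53.1, 38.6, 34.2 and 45.4 RPKM at ZT0, 94.0, 69.4, 67.3 and 63.2 at ZT4, and 73.7, 85.4, 72.7 and 61.6 at ZT8. They were 43.3, 52.6, 58.5 and 44.2 RPKM at ZT12, 39.0, 46.3, 41.8 and 32.7 at ZT16, and 69.0, 38.1, 67.3 and 52.0 at ZT20. All mice at ZT4 and ZT8 were above all mice at ZT0, ZT12 and ZT16, so at ZT12 Cirbp was already low while Rbm3 was still near its maximum. Cirbp changed 1.67-fold (0.74 ± 0.19 log2) with a peak at ZT5.96 ± 1.01 h and an adjusted p of 0.0169 (limma, 24 libraries). This call was lost without replicate number 2 (adjusted p = 0.128) or 4 (0.0607).

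**Figure D1:**
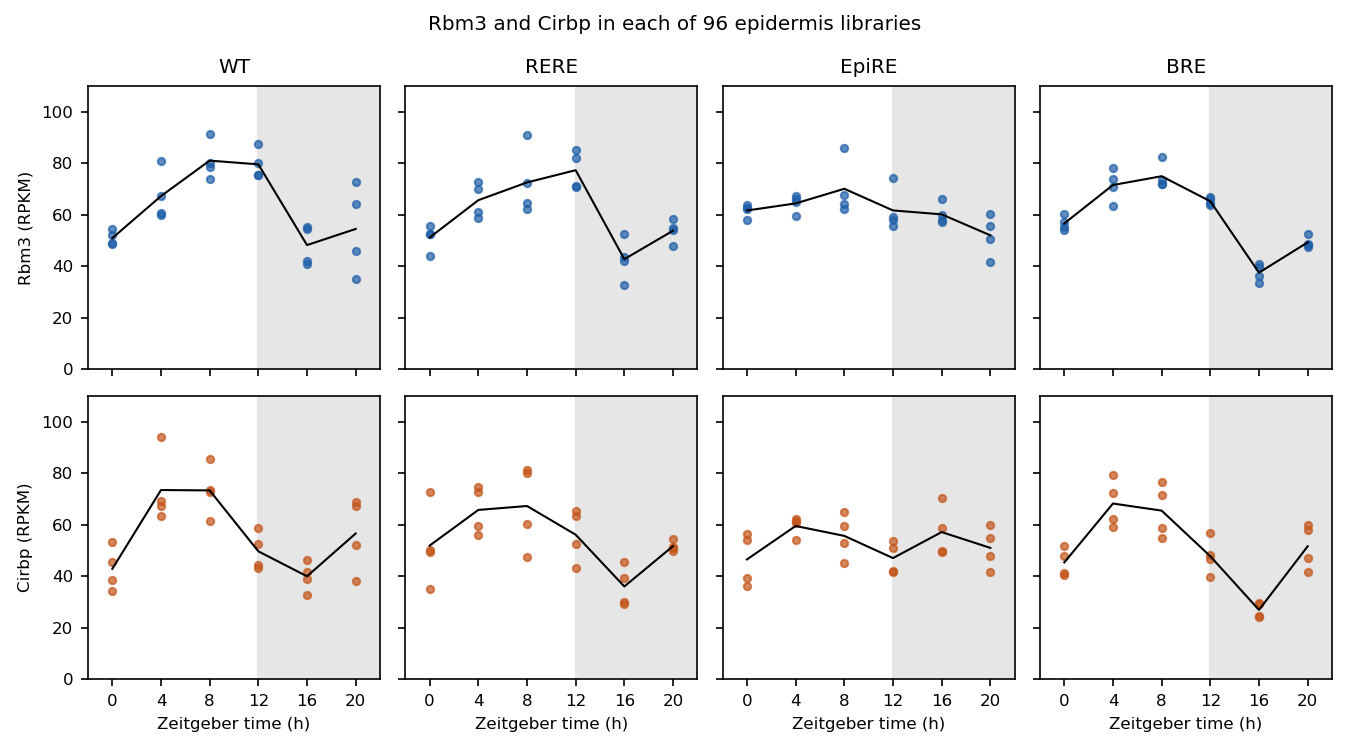
Level of Rbm3 (upper row) and Cirbp (lower row) in RPKM against zeitgeber time in hours for WT, RERE, EpiRE and BRE. Each point is 1 mouse, lines join the means of 4 mice, and grey marks the dark phase; all 4 values at ZT8 lie above all 4 at ZT16 in WT, RERE and BRE for both genes, and overlap in EpiRE.

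With Arntl restored in brain and epidermis (RERE), both genes kept a rhythm whose size and time were not distinguished from WT. Rbm3 was at 52.6, 44.0, 52.4 and 55.5 RPKM at ZT0, at 61.0, 72.7, 58.6 and 70.1 at ZT4, and at 64.6, 91.1, 72.3 and 62.1 at ZT8. It was at 82.2, 71.1, 85.3 and 70.7 RPKM at ZT12, at 32.7, 43.5, 52.4 and 42.1 at ZT16, and at 54.8, 54.2, 47.7 and 58.4 at ZT20. The 3 times from ZT4 to ZT12 lay wholly above the other 3. The fitted change was 1.61-fold (0.69 ± 0.15 log2), with a peak at ZT7.88 ± 0.81 h and an adjusted p of 0.00769 (limma, 24 libraries), where 16.4% of tested genes were called. This call was lost without the mice of replicate number 2 (adjusted p = 0.0941) or of number 3 (0.0512), each of which leaves 18 libraries.

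Cirbp in RERE was at 49.5, 35.0, 50.3 and 72.7 RPKM at ZT0, at 59.4, 74.8, 55.9 and 72.9 at ZT4, and at 47.4, 81.2, 80.0 and 60.5 at ZT8. It was at 65.4, 52.4, 63.4 and 43.3 RPKM at ZT12, at 29.2, 29.9, 45.7 and 39.2 at ZT16, and at 51.5, 54.3, 49.8 and 51.1 at ZT20. The low point at ZT16 was clear of ZT4, ZT8 and ZT20, while ZT0 overlapped every other time. Cirbp changed 1.64-fold (0.72 ± 0.18 log2), peaked at ZT5.55 ± 0.98 h and passed with an adjusted p of 0.027. This is the least stable call of the 2 genes: it was lost when any of the 4 replicate numbers was left out (adjusted p of 0.0577 to 0.118), when single libraries were left out (ZT4 mouse 2, 0.0504; ZT4 mouse 4, 0.0513; ZT8 mouse 3, 0.0505; ZT16 mouse 1, 0.0578; ZT16 mouse 2, 0.0539), and with no filter on low genes (0.0505).

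With Arntl restored in epidermis alone (EpiRE), both genes had their smallest fitted changes. Rbm3 was at 57.8, 63.7, 62.7 and 62.4 RPKM at ZT0, at 65.9, 67.1, 59.4 and 65.0 at ZT4, and at 62.4, 64.1, 67.7 and 86.0 at ZT8. It was at 59.2, 57.7, 74.1 and 55.5 RPKM at ZT12, at 57.8, 57.0, 59.8 and 65.9 at ZT16, and at 50.7, 60.2, 41.6 and 55.4 at ZT20. From ZT0 to ZT16 each time overlapped every other, and only ZT8 lay wholly above ZT20. The fitted Rbm3 change was 0.32 ± 0.09 log2 (1.25-fold) and did not pass (adjusted p = 0.0974), although it exceeded that of 86.4% of tested genes, and 2.87% of tested genes were called. Its unadjusted p was 0.00655 and its fitted peak was at ZT7.27 ± 1.07 h.

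Cirbp in EpiRE was at 54.0, 36.4, 56.2 and 39.4 RPKM at ZT0, at 60.6, 61.3, 54.1 and 62.1 at ZT4, and at 45.1, 59.6, 52.8 and 65.1 at ZT8. It was at 41.5, 53.6, 50.9 and 42.1 RPKM at ZT12, at 49.9, 49.6, 58.7 and 70.4 at ZT16, and at 59.9, 54.9, 41.5 and 47.7 at ZT20. The highest and the lowest time, ZT4 and ZT0, overlapped. The fitted change was 0.12 ± 0.14 log2 and was not called (adjusted p = 0.865), and only 38.7% of tested genes had a smaller one. At ZT16, where Cirbp had its lowest mean in the other 3 genotypes, its EpiRE mean was the second highest of the day, 57.1 RPKM after 59.5 at ZT4.

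With Arntl restored in brain alone (BRE), both genes had their largest fitted rhythm of the 4 genotypes, while Per2, Per3, Nr1d1, Nr1d2 and Dbp were not called rhythmic in the same libraries. The core clock genes called there by limma were Arntl (0.18 ± 0.05 log2, adjusted p = 0.0329) and Npas2 (0.34 ± 0.09 log2, 0.0289). After rescaling their adjusted p-values were 0.139 and 0.0435. Rbm3 was at 60.1, 53.9, 55.2 and 57.2 RPKM at ZT0, at 74.0, 78.0, 63.5 and 70.6 at ZT4, and at 82.4, 72.0, 73.4 and 71.9 at ZT8. It was at 66.1, 63.6, 66.7 and 64.5 RPKM at ZT12, at 39.5, 33.4, 36.0 and 41.0 at ZT16, and at 48.6, 47.6, 48.3 and 52.5 at ZT20. The mice of each time agreed closely: ZT16, ZT20, ZT0 and ZT12 followed each other upward without overlap, ZT12 overlapped only ZT4, and ZT8 overlapped only ZT4. Rbm3 changed 1.85-fold (0.89 ± 0.10 log2), with a peak at ZT6.12 ± 0.42 h and an adjusted p of 2e-04. Among the 12144 tested genes, of which 17.1% were called, this was the second smallest p, after Isoc1 (adjusted p = 8.98e-05), a gene named here after its value was seen.

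Cirbp in BRE was at 51.9, 41.2, 47.9 and 40.3 RPKM at ZT0, at 72.2, 79.1, 62.3 and 59.2 at ZT4, and at 71.5, 58.7, 55.0 and 76.7 at ZT8. It was at 39.6, 46.5, 48.2 and 56.6 RPKM at ZT12, at 24.4, 24.2, 29.3 and 29.6 at ZT16, and at 57.9, 41.6, 47.0 and 60.0 at ZT20. All 4 mice at ZT16 were below every other mouse of the genotype, and the ZT4 mean was 2.54-fold the ZT16 mean. The fitted change was 2.02-fold (1.01 ± 0.19 log2), larger than that of 99.0% of tested genes, with a peak at ZT4.92 ± 0.71 h and an adjusted p of 0.00462. The call was lost without replicate number 2 (adjusted p = 0.0825) but in none of the 24 fits that left out 1 library (0.00193 to 0.0116).

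**Figure D2:**
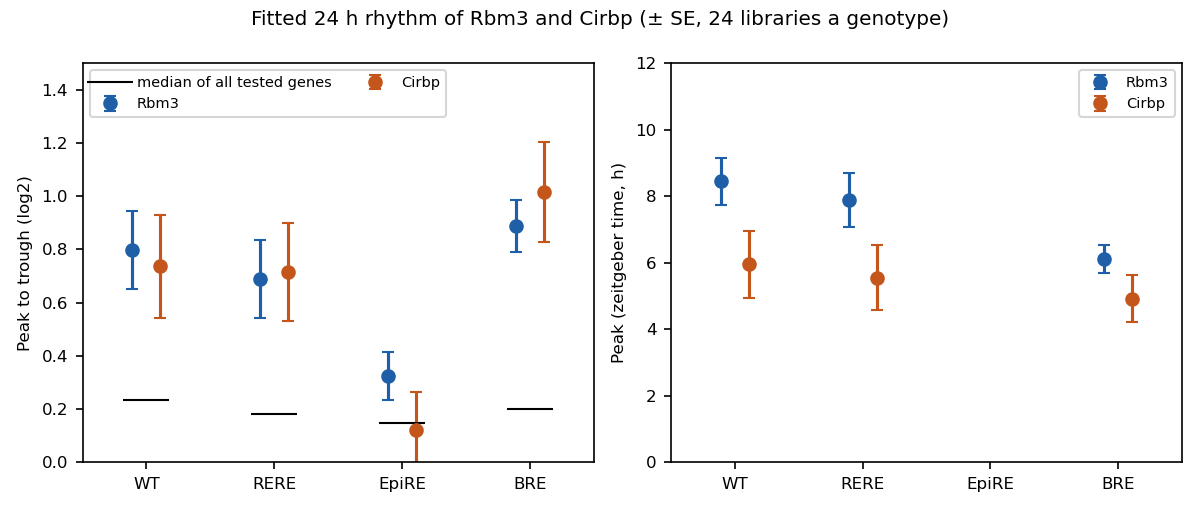
Fitted peak-to-trough change in log2 (left) and fitted peak in hours of zeitgeber time (right) by genotype, with the SE of each fit over 24 libraries; black dashes are the median over all tested genes, and peak times are drawn where the rhythm was called. The change is largest in BRE (0.89 for Rbm3 and 1.01 for Cirbp) and smallest in EpiRE (0.32 and 0.12), and Rbm3 peaks later than Cirbp in each of the 3 genotypes shown.

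The lowest point was shared. ZT16, 4 h into the dark phase, had the lowest mean of the day for both genes in WT, RERE and BRE. All 4 mice at ZT8 were above all 4 at ZT16 for Rbm3 and for Cirbp in each of these 3 genotypes, an ordering found in 4.21% of tested genes in WT, 3.6% in RERE and 10.6% in BRE. In EpiRE, where 3.73% of genes showed it, neither gene did. For the other orderings without overlap given above, the share of all tested genes showing them was not counted. A second term with a 12 h period, added after the profiles were seen, was called for neither gene in any genotype (adjusted p of 0.2 to 0.981), and 0.403% of tested genes in WT, 0% in RERE and EpiRE (1342 and 938 at an unadjusted limma p below 0.05) and 0.0329% in BRE were called. Its unadjusted p was below 0.05 for Cirbp in WT (0.0115), EpiRE (0.0216) and BRE (0.014) and for Rbm3 in BRE (0.0023).

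Which restored clock goes with the rhythm was asked by comparing genotypes in pairs, 6 pairs for each of the 2 genes, with p-values adjusted over all tested genes. Each p-value tests the cosine and sine terms together, and so the size and time of the rhythm at once. The log2 differences and their intervals are of size alone. EpiRE and BRE differed for both genes. The Rbm3 rhythms differed with an adjusted p of 0.0089, and the fitted size was larger in BRE by 0.56 ± 0.14 log2 (SE). The Cirbp rhythms differed with an adjusted p of 0.0221, and the size was larger in BRE by 0.89 ± 0.24 log2. In this pair 13.9% of tested genes were called. Both calls held in each of the 48 fits that left out 1 library (Rbm3 adjusted p of 0.00202 to 0.0192, Cirbp 0.00768 to 0.0494). The Rbm3 call was lost without replicate number 1 (0.071) or 2 (0.137), and the Cirbp call without number 1 (0.0868), 2 (0.177) or 3 (0.0876).

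No other pair passed. WT and RERE differed by -0.11 log2 for Rbm3 (95% interval -0.53 to 0.32, adjusted p = 0.942) and by -0.02 for Cirbp (-0.57 to 0.52, adjusted p = 1), RERE minus WT, and 0.453% of tested genes were called. The lower bounds of -0.53 and -0.57 stand against WT rhythms of 0.80 and 0.74 log2. EpiRE minus WT was -0.47 log2 for Rbm3 (-0.83 to -0.12, adjusted p = 0.13) and -0.62 for Cirbp (-1.11 to -0.12, adjusted p = 0.19), where 8.51% were called. EpiRE minus RERE was -0.37 for Rbm3 (-0.72 to -0.01, adjusted p = 0.389) and -0.59 for Cirbp (-1.07 to -0.12, adjusted p = 0.249), where 4.04% were called. These EpiRE intervals are those of single genes and of size alone, and they exclude 0. They rest on an approximate SE, and a fitted size cannot fall below 0. The intervals are therefore rough where a size is near its SE, as for Cirbp in EpiRE (0.12 ± 0.14 log2). The p-values test size and time together, and adjusted over all tested genes they do not pass. Before adjustment the limma p for EpiRE against WT was 0.0239 for Rbm3 and 0.0475 for Cirbp. For EpiRE against RERE it was 0.0456 for Cirbp but 0.113 for Rbm3, so for Rbm3 the unadjusted test did not pass there either. The Rbm3 difference between RERE and EpiRE did pass when the 6 times were fitted as separate levels (adjusted p = 0.0322).

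With p-values adjusted over all tested genes, BRE was not distinguished from the genotypes with both clocks. The unadjusted limma p for BRE against WT was 0.0233 for Rbm3 and 0.42 for Cirbp. For Rbm3 it was thus as small as that of EpiRE against WT (0.0239). For BRE against RERE the unadjusted limma p was 0.0839 for Rbm3 and 0.468 for Cirbp. BRE minus WT was 0.09 log2 for Rbm3 (-0.27 to 0.45, adjusted p = 0.0852) and 0.28 for Cirbp (-0.27 to 0.83, adjusted p = 0.581), where 20.2% of tested genes were called. BRE minus RERE was 0.20 for Rbm3 (-0.16 to 0.56, adjusted p = 0.466) and 0.30 for Cirbp (-0.24 to 0.84, adjusted p = 0.849), where 4.79% were called. Rbm3 peaked 2.33 ± 0.81 h earlier in BRE than in WT by the fitted times (BRE minus WT, 95% interval -3.97 to -0.68 h), a shift within a comparison that did not pass over all genes. For Cirbp the same shift was -1.04 h (-3.53 to 1.45).

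The ratio of Rbm3 to Cirbp over the day passed the test in RERE and in none of the other 3 genotypes. Taken within each library, it was highest at ZT12 in WT (1.61) and RERE (1.39) and was close to 1 at ZT4 (0.919 and 1.00). In BRE it was 1.38 at ZT12 and 1.40 at ZT16 against 0.964 at ZT20. In a 24 h fit tested by 100000 permutations of the times, and adjusted over the 4 genotypes, the ratio varied in RERE (1.34-fold, 0.42 ± 0.11 log2, peak at ZT12.9, p = 0.00433, adjusted p = 0.0173). The same permutation test did not pass in WT (1.41-fold, 0.49 ± 0.18 log2, peak at ZT12.7, p = 0.0352, adjusted p = 0.0704), BRE (1.25-fold, adjusted p = 0.124) or EpiRE (1.15-fold, adjusted p = 0.372). Without replicate number 1 or 4 the RERE call was lost (adjusted permutation p of 0.0646 and 0.12), and without number 3 the WT ratio passed (0.0216). Differences in the ratio between genotypes were not tested, and this ratio was chosen after the profiles were seen.

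**Figure D3:**
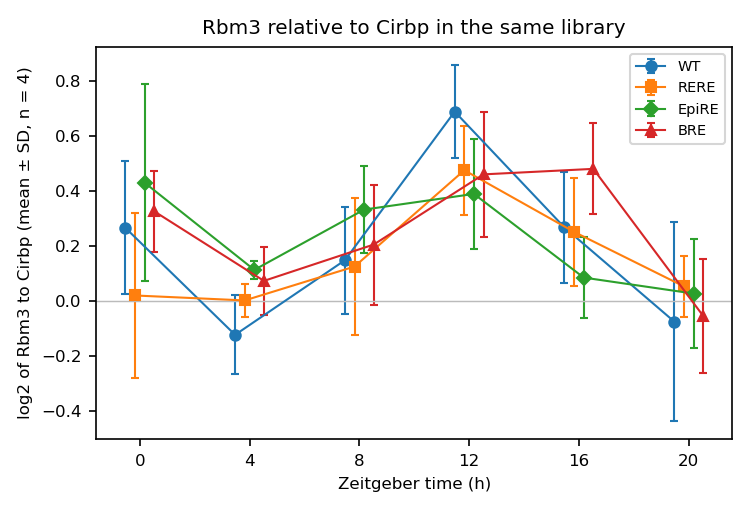
Log2 of Rbm3 over Cirbp in the same library against zeitgeber time in hours, as the mean of 4 mice with the SD, for the 4 genotypes (points are set slightly apart). The ratio is highest at ZT12 in WT (0.69 log2) and RERE (0.48) and at ZT16 in BRE (0.48), and in EpiRE it is highest at ZT0 (0.43).

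Mice collected at the same time also differed from each other in both genes. The SD between mice of 1 time, pooled over the 6 times, for Rbm3 was 0.24 log2 (WT), 0.19 (RERE), 0.16 (EpiRE) and 0.09 (BRE). For Cirbp it was 0.27, 0.30, 0.23 and 0.21 log2. Among genes of like level, 75.7% to 93.6% had a smaller SD, except for Rbm3 in BRE, where only 28.5% had. A mouse high in one gene tended to be high in the other in RERE: deviations from the means of the times gave Pearson r = 0.768 and Spearman rho = 0.788 (n = 24 mice, permutation p of 0.00011 and 0.00018, adjusted p = 0.00072 for both over 4 genotypes and both measures). Without the 2 mice farthest from the median of Rbm3, r was 0.764 in RERE. In WT r was 0.596 and rho 0.435 (permutation p of 0.0254 and 0.0782, adjusted 0.0653 and 0.0894), and r fell to 0.347 without the 2 farthest mice. Leaving out the farthest mice also narrows the range of Rbm3, so how far the WT value rests on them cannot be told from this fall. EpiRE gave r = 0.474 and rho = 0.399 (permutation p of 0.0327 and 0.0714, adjusted 0.0653 and 0.0894). BRE gave r = 0.439 and rho = 0.343 (permutation p of 0.0447 and 0.124, adjusted 0.0716 and 0.124), and without the 2 farthest mice r was 0.319 in EpiRE and 0.397 in BRE. The 2 genes come from the same libraries, so anything that shifts a library shifts both.

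**Figure D4:**
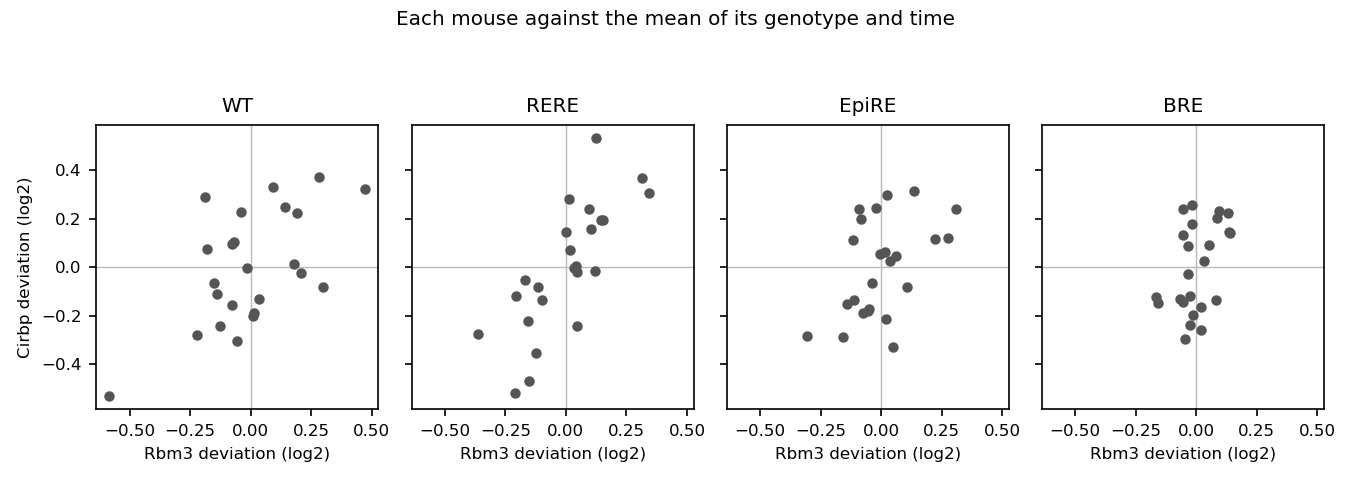
Deviation of Cirbp against deviation of Rbm3, both in log2 from the mean of the mouse's genotype and time, with 1 point per mouse and 24 mice per genotype. The points rise together most closely in RERE (r = 0.768), and in BRE the Rbm3 deviations are narrow (SD 0.09) while those of Cirbp are not (0.21).

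The antisense gene Rbm3os was weakly expressed, between 1.06 and 4.65 RPKM in all libraries, and was not called in any genotype. Its fitted changes were 0.45 ± 0.20 log2 in WT (adjusted p = 0.179), 0.57 ± 0.21 in RERE (0.146), 0.61 ± 0.24 in EpiRE (0.27) and 0.14 ± 0.20 in BRE (0.86), from the same limma fits. Rbm3 was at least 7.08 times as high as Rbm3os in each library, with a median of 22.7 times.

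The authors' deposited tables hold 2 rhythm searches of their own. For Rbm3 the JTK_CYCLE q in the authors' deposited table was 0.00774 for WT and 0.0784 for RERE, and 0.248 for EpiRE and 0.00124 for BRE. For Cirbp it was 0.0689, 0.101, 1 and 0.0157 in the authors' deposited table. BRE thus had the smallest JTK_CYCLE q for both genes. The BIOCYCLE q in the authors' deposited table was below 0.05 only for Rbm3 in WT (0.0309). For Rbm3 the BIOCYCLE q was 0.261 for RERE and 0.176 for BRE in the authors' deposited table. For Cirbp it was 0.19 for WT, 0.269 for RERE and 0.359 for BRE in the authors' deposited table. By BIOCYCLE, WT and not BRE thus had the smallest q for both genes.

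Most heat shock genes ran opposite to both genes. Over the 24 means of genotype and time, each genotype centred, 22 of 23 heat shock genes had a negative correlation with Rbm3 (median r = -0.517) and 22 of 23 with Cirbp (median r = -0.603), against 54.0% and 46.1% of all genes with varying values. After median rescaling of the libraries the counts were again 22 and 22. Fitted peaks, called or not, fell between ZT12 and ZT24 for 19 (WT), 22 (RERE), 18 (EpiRE) and 22 (BRE) of the 23. The share of all tested genes with a fitted peak in these hours, called or not, was not counted. In WT Dnajb4 (ZT9.03, r = 0.296 with Rbm3), Dnajb1 (ZT9.67, -0.13), Bag3 (ZT10.36, -0.088) and Hspb8 (ZT11.31, -0.096) had fitted peaks in the light phase. None of these was called in WT. Of the list, 11 members were called in WT, 7 in RERE, 1 in EpiRE (Hsf1, the heat shock transcription factor) and 6 in BRE, against 34.4%, 16.4%, 2.87% and 17.1% of all tested genes. The RERE count fell to 4 after rescaling. All called members peaked in the dark phase, between ZT12 and ZT24. Among all called genes, 9.54%, 26.0% and 31.8% peaked at ZT12 to ZT16, ZT16 to ZT20 and ZT20 to ZT24 in WT, where a peak in the dark was thus common. The same shares were 15.8%, 9.93% and 21.2% in RERE, 47.9%, 8.02% and 2.29% in EpiRE, and 7.0%, 6.85% and 15.6% in BRE. The median change of the list was 0.31, 0.28, 0.22 and 0.32 log2 in the same order, against 0.23, 0.18, 0.15 and 0.20 over all tested genes. These correlations are descriptions over means from shared libraries.

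The smallest p-values of the list in WT were those of Serpinh1, the collagen chaperone (0.81 ± 0.10 log2, peak at ZT19.9, adjusted p = 2.08e-05), Hspa4 (0.41 ± 0.06, ZT20.9, 4.44e-05), the co-chaperone Fkbp4 (0.68 ± 0.10, ZT19.4, 7.83e-05) and the mitochondrial chaperonin Hspd1 (0.52 ± 0.08, ZT19.7, 0.000131). None of these 4 was called in BRE (adjusted p of 0.0553, 0.275, 0.151 and 0.119), but Serpinh1 was after rescaling (0.0377). The 6 called in BRE were Hspb1, Hspa1a, Hspa8, Hspa1b, Hsp90ab1 and Hsp90aa1, of which Hspa8 and Hsp90ab1 were called in WT too. Hspb1, Hspa1a, Hspa1b and Hsp90aa1 were not called in WT (adjusted limma p of 0.631, 0.523, 0.565 and 0.379). In BRE Hspb1, encoding the small chaperone HSP27, changed by 0.65 ± 0.11 log2 with a peak at ZT13.4 (adjusted p = 0.00341). Between EpiRE and BRE the rhythms of 4 of 23 members differed: Hspb1, Hspa1a and Hspa1b, larger in BRE, and Hspa4l, larger in EpiRE. Fkbp4 and Hspa4 differed between WT and BRE by the same kind of test, among 5 of 23. Both counts are near the shares of all tested genes called in these pairs, 13.9% and 20.2%.

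Among tested genes with varying values, predicted genes left out, the one most opposite to Cirbp by the 24 centred means was itself a heat shock gene. Hspa8, encoding the constitutive HSC70 chaperone, had r = -0.939 with Cirbp. It was followed by the zinc-finger genes Prdm15 (-0.908) and Zbtb40 (-0.905). Hspa8 changed by 0.32 ± 0.09 log2 in WT (adjusted p = 0.0173, but 0.0704 after rescaling), 0.39 ± 0.08 in RERE (0.00568), 0.14 ± 0.08 in EpiRE (0.484) and 0.44 ± 0.09 in BRE (0.00639), with peaks between ZT16.6 and ZT19.1. Most opposite to Rbm3 were Wdr78 (r = -0.938), St13 (-0.891), whose protein is a co-chaperone of HSC70, and Dmtf1 (-0.888). Wdr78, a dynein-related WD-repeat gene, was called in WT, RERE and BRE with peaks at ZT19.4, ZT19.8 and ZT18.1. St13 was called in these genotypes too, and Dmtf1 in RERE only.

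Most like Rbm3 were Pdk1 (r = 0.891), a kinase that restrains pyruvate dehydrogenase, Adrb3 (0.875), the β3-adrenergic receptor, and Tomm20 (0.87), a mitochondrial import receptor. Next came Ddit4 (0.864), an mTORC1 inhibitor induced by stress and glucocorticoids, the splicing factor Luc7l2 (0.854) and Hint2 (0.853). Pdk1 was called in the same 3 genotypes as Rbm3, with peaks at ZT8.44 in WT, ZT9.64 in RERE and ZT6.07 in BRE and changes of 0.33, 0.38 and 0.41 log2. Adrb3, Tomm20 and Luc7l2 were called in WT only, Ddit4 in RERE only and Hint2 in BRE only. Most like Cirbp were Dazap2 (0.932), Ccdc122 (0.929), Arsg (0.927), Pbxip1 (0.912), Ncstn (0.894), a subunit of γ-secretase, and Fibp (0.892). Ccdc122 was called in WT, RERE and BRE, as Cirbp was, with changes of 0.82, 0.76 and 0.66 log2 and peaks between ZT4.64 and ZT5.52. Ncstn was called in these 3 genotypes too. Dazap2 was called in WT and BRE, Arsg in WT and RERE, Fibp in BRE only and Pbxip1 in none. All these genes, and the most opposite ones, were chosen by r over the same 24 means, so their peak times follow in part from that choice. Rbm3 and Cirbp had r = 0.789 with each other, so that 30 genes were more like Rbm3 than Cirbp was, and 91 were more like Cirbp than Rbm3 was.

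RNA-binding proteins related to the 2 genes, or known to act on them, were split in their daily profile. Of 20 tested members, 8 were called in WT, 3 in RERE and 7 in BRE (4 after rescaling), but 0 in EpiRE by limma, and 11 had a negative r with Rbm3 and 9 with Cirbp (10 and 11 after rescaling). In EpiRE 7 of the 20 had an unadjusted limma p below 0.05. The share of all tested genes below this unadjusted threshold was not counted, for this list or for those that follow. Over all tested genes the shares called were 34.4% (WT), 16.4% (RERE), 2.87% (EpiRE) and 17.1% (BRE), so the counts in WT, RERE and EpiRE are near the background. Hnrnpa1, a splicing and export factor, was the member most like Cirbp (r = 0.86) and changed by 0.32 ± 0.07 log2 in WT (peak at ZT4.7, adjusted p = 0.00299), 0.32 ± 0.07 in RERE (ZT5.11, 0.00565) and 0.41 ± 0.06 in BRE (ZT3.59, 0.00155), but by 0.06 ± 0.07 in EpiRE (0.877). Hnrnpa2b1 peaked later at night in WT (ZT21.8, adjusted p = 4.05e-05), and Elavl1, encoding the mRNA-stabilizing protein HuR, peaked at ZT20 in WT (0.27 ± 0.06 log2, 0.00243) with r = -0.767 to Rbm3. The difference between EpiRE and BRE was called for 5 of 20, Hnrnpd, Hnrnpa1, Prmt1, G3bp1 and Rbmx, all larger in BRE, in a pair in which 13.9% of all tested genes were called. Sp1 changed by 0.22 ± 0.06 log2 in WT (peak at ZT0.62, adjusted p = 0.0167) and by 0.25 ± 0.06 in BRE (ZT22.7, 0.0289), and after rescaling neither call passed (0.0573 and 0.14).

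Of 12 SR splicing factors, which select exons and are regulated by temperature through CLK kinases, 3 were called in WT (Srsf4, Srsf9 and Srsf10; 6 after rescaling), 0 in RERE by limma (4 at an unadjusted p below 0.05, 1 called after rescaling), 1 in EpiRE (Srsf2) and 2 in BRE (Srsf3 and Srsf2). These counts are to be read against 34.4%, 16.4%, 2.87% and 17.1% of all tested genes in the same order, and those in WT, RERE and BRE are at or below these shares. Srsf2 had the highest r with Rbm3 (0.681), with a peak at ZT12.4 in EpiRE and ZT3.74 in BRE. Of 9 temperature-gated TRP channels 2 reached the level for testing. Trpv4, a warmth-activated channel of keratinocytes, was called in RERE (0.60 ± 0.16 log2, peak at ZT5.05, adjusted p = 0.0294), and Trpv3 in no genotype (adjusted p of 0.238 to 1).

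Some markers of cell layers and of other cells changed over the day as well. In BRE, where 17.1% of all tested genes were called, 3 of 6 suprabasal keratinocyte markers were called, and the list's sum had its highest mean at ZT8 (14585 RPKM) and its lowest at ZT0 (10482), with a range of 8335 to 18212 over the libraries. In RERE (16.4% of all tested genes) 0 of 6 were called by limma (0 at an unadjusted p below 0.05), and the sum was highest at ZT8 (11867 RPKM) and lowest at ZT16 (9831). In WT (34.4%) 1 of 6 was called, and the sum had its highest mean at ZT0 (12627) and its lowest at ZT12 (7085). Of 6 basal keratinocyte markers 2 were called in BRE, Itga6 with a peak at ZT19.7 and Col17a1 at ZT21, and the list's sum was highest at ZT0 (11658 RPKM) and lowest at ZT8 (9638). In WT 1 basal marker was called, and the basal sum was highest at ZT20 (11718) and lowest at ZT0 (10021). Of 4 tested T cell markers 1 was called in WT, in RERE and in BRE, and their sum ranged from 20.7 to 90.8 RPKM over the libraries of these 3 genotypes. In BRE the T cell sum was lowest at ZT16 (54.7 RPKM) and highest at ZT20 (76.9), and in WT lowest at ZT8 (35.9) and highest at ZT20 (70.9). ZT16, the lowest time of the T cell sum in BRE, was the lowest time of Rbm3 and Cirbp there too, and ZT8, its lowest time in WT, was among the high times of both genes. The part of these cells in the rhythms of Rbm3 and Cirbp was not tested.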

How the data were processed

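Epidermal RNA of 96 mice was sequenced, 24 per genotype. Per the submitters' processing notes, the authors used Trimmomatic 0.36, HISAT2 2.2.1, SAMtools 1.3.1, featureCounts 1.6.0 and edgeR (no version given) with mm10. The deposited log2 values carry no named unit and behave as log2 RPKM with a prior of 2 reads, normalized apart in each genotype. The deposited p-values and q-values are those of the authors' JTK_CYCLE and BIOCYCLE runs, and the authors' peak times are not used. The 96 sample columns of the JTK_CYCLE tables, equal to the others within 5.0e-06 log2, were not used.

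Here, 12144 of 22384 genes were tested because their mean reached 1 RPKM, 10240 were not, and 313 of those tested sit at 1 constant value in a genotype because of the prior. limma 3.58.1 (R 4.3.3, eBayes with trend) tested the cosine and sine of a 24 h period by F test in the 24 libraries of each genotype, and genotype by cosine and sine in 48 libraries for each pair. P-values were adjusted by Benjamini and Hochberg over tested genes and called below 0.05. The fits were tested on simulated data. Pair correlations used two-sided permutations within times, 100000 each (Python 3.11.15, numpy 2.4.6). Mice are separate animals. Named genes were both members, the 6 most alike and 3 most opposite to each by Pearson r over 24 means (predicted genes left out), and up to 4 per list by smallest adjusted p, with others needed for a count. Lists were heat shock chaperones, RNA-binding relatives and regulators, SR splicing factors, temperature-gated TRP channels and core clock, with markers of 12 cell types. The members and lists were chosen with earlier results of these data known. Alternatives were rescaling by medians, no filter, log2(RPKM + 1), a replicate block, time as a factor, 1 fit over all libraries and leaving out replicate numbers or libraries. The 12 h term, the ratio, the left-out libraries for EpiRE against BRE, fits without constant features and the rescaled lists were added after seeing the data.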

Additional observations from a re-analysis of the deposited data

Results flagged for a closer look

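Rbm3 in BRE at ZT8 had 1 mouse apart from the other 3: 82.4 RPKM against 71.9 to 73.4, a gap of 0.85 of the range of the 4 mice, above Dixon's 95% critical value for 4 samples. It was the 1 such case among 48 groups of 4 mice, where chance gives about 1 in 20, and the BRE rhythm of Rbm3 stayed called in every fit that left out 1 library.

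The rhythms of Rbm3 (adjusted p = 0.0089) and Cirbp (adjusted p = 0.0221) differed between EpiRE and BRE by the limma test of the difference, both being larger in BRE.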

How the results depend on the processing

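Of 56 rhythm results under settings other than leaving out mice, 55 kept direction and call, as did 71 of 72 difference results. The Cirbp rhythm in RERE was lost with no filter (adjusted p = 0.0505), and the Rbm3 difference between RERE and EpiRE passed with time as a factor (0.0322). The WT correlation of the 2 genes passed after rescaling (r = 0.631) and with the replicate block (r = 0.578), as did that in EpiRE with the block (r = 0.476). The cause was not tested. Replicate numbers did not pair the mice (mean r of same-numbered deviations -0.021 to 0.028, 15 to 21 of 60 pairs above 0.1 in a genotype), and the block changed no other call of the 2 genes.

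Leaving out 1 replicate number or 1 library gave adjusted p-values of 0.00447 to 0.128 for Cirbp in WT, 0.0152 to 0.118 in RERE and 0.00193 to 0.0825 in BRE, and of 0.00424 to 0.0941 for Rbm3 in RERE; the calls lost this way stand beside each result. For EpiRE against BRE they gave 0.00202 to 0.137 for Rbm3 and 0.00768 to 0.177 for Cirbp. The Cirbp difference of WT and RERE, 0.983 to 1, changed direction without number 4 (1). Correlations spanned 0.391 to 0.75 in WT, 0.308 to 0.661 in EpiRE and 0.188 (without number 2) to 0.555 in BRE, passing in WT without number 3 and in EpiRE without number 2. The ratio gave 0.0216 to 0.12 in RERE, 0.0216 to 0.589 in WT and 0.0501 to 0.589 in BRE. Leaving out a number also leaves 18 libraries for a rhythm.

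The background counts moved by more than 1.5 times in places. Genes called in EpiRE (349) became 180 with no filter and 206 with the block, in BRE (2072) 1350 with no filter, and in RERE (1993) 1306 with time as a factor. Without 1 replicate number they fell as low as 6 in EpiRE, 211 in BRE, 1034 in RERE and 2065 in WT (4174). Differences of WT and RERE (55) became 10, 2, 4 and 17 with rescaling, no filter, block and time as a factor, and 23 without constant features. With time as a factor the others became 629 for WT and EpiRE (1034, and 654 after rescaling), 1584 for WT and BRE (2457), 276 for RERE and EpiRE (491) and 907 for EpiRE and BRE (1692). Without 1 replicate number the differences fell as low as 383 for EpiRE and BRE, 145 for WT and EpiRE, 1012 for WT and BRE, 74 for RERE and EpiRE, 188 for RERE and BRE (582) and 0 to 2 for WT and RERE, so the shares called in a pair are themselves unsteady. The counting error of either gene was below its SD between mice of 1 time.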
